A study of Mus musculus with 6 samples.

Results

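Genes for the enzymes that cut, and the enzymes that build and crosslink, the extracellular matrix were compared between the gastrocnemius of mice with a muscle neurturin transgene and that of wild-type mice. The members were all protein-coding genes whose symbols begin with Mmp, Timp, Adam or Adamts (with their numbers), or name a lysyl oxidase (Lox, Loxl), a collagen prolyl 4-hydroxylase alpha subunit (P4ha) or a procollagen lysyl hydroxylase (Plod). There were 75 of them among 16561 protein-coding genes and 25344 genes in all. The gastrocnemius is a muscle of the calf. Its RNA was sequenced from wild-type mice (WT, 3 libraries) and from transgenic littermates (HSA-NRTN, 3 libraries). The transgene puts NRTN under the human alpha-skeletal actin promoter, so that muscle fibres make the neurotrophic factor neurturin. The labels give no strain, sex, age or number of animals per library, and they name no treatment. The p-values therefore measure the spread between these libraries, which may be technical.

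Matrix metalloproteinases (MMPs) are zinc enzymes that are made as inactive precursors and cut collagens, proteoglycans and other secreted proteins. Tissue inhibitors of metalloproteinases (TIMPs) bind their active sites. ADAM proteins are membrane-bound relatives, and many but not all of them release the outer parts of cell surface proteins. ADAMTS enzymes are secreted and act on procollagens, proteoglycans and microfibrils. Prolyl and lysyl hydroxylases modify new collagen chains inside the cell, and lysyl oxidases later crosslink collagen and elastin outside it. In skeletal muscle the matrix is made largely by fibroblasts between the fibres, and MMPs are also released by macrophages and other leukocytes.

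Levels are given as FPKM, the reads of a gene scaled by its length and by the reads of the library, so that levels of different genes can be set side by side per length. The reads counted per library ranged from 27418154 to 35243260 in WT and from 28580513 to 50291845 in HSA-NRTN. Nrtn itself was at 3.21, 1.7 and 4.33 FPKM in WT and at 178, 201 and 169 FPKM in HSA-NRTN, in accord with the labels of all 6 libraries. All 10 muscle fibre markers were present in every library, and their summed level was 53281 to 60941 FPKM in WT and 31792 to 34927 FPKM in HSA-NRTN. The deposited FPKM are scaled by the total of each library. The median log2 change over the 10755 tested genes, those averaging 1 FPKM or more, was 0.18. Scaling the reads by the authors' size factors instead moved that median by -0.23, to -0.05. These size factors were inferred by least squares from the authors' mean signal per gene and the reads recovered from the FPKM. Calls and log2 changes of the tested genes are therefore given under both scalings. Levels in FPKM and summed levels are as deposited only. A gene rose or fell where limma gave a Benjamini-Hochberg adjusted p under 0.05 over all tested genes. Calls of the authors' deposited table are named as such.

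Of the 75 genes, 34 averaged 1 FPKM or more and were tested. With the FPKM as deposited, 29 of the 34 rose in HSA-NRTN and 0 fell. The 29 are 85.3% of the tested members, where 41.6% of all 10755 genes rose, 11.7% fell and 53.3% did either. At an unadjusted p under 0.05 limma also gave 0 lower genes, and limma-voom on the recovered reads gave 29 higher and 0 lower. With the size factors, 18 of the 34 rose and 1, Adam9, fell. The 18 are 52.9%, where 21.1% of all genes rose, 29.9% fell and 51.0% did either. The median log2 change of the 34 was 0.53 as deposited and 0.29 with the size factors, beside 0.18 and -0.05 for all tested genes. The libraries of the groups did not overlap for 29 higher and 1 lower of the 34 as deposited, where this held for 47.0% and 15.2% of all genes. With the size factors it held for 20 higher and 3 lower, against 24.6% and 35.4% of all genes. For 6 of the 34 (Adam8, Mmp19, Timp1, Plod2, Mmp23 and Adamts12) the WT mean was under 1 FPKM. They were tested only because their HSA-NRTN level was higher, which fixed their direction. Among the other 28, 23 rose and 0 fell as deposited, and 13 rose and 1 fell with the size factors. The shares of all genes given above include genes tested only through HSA-NRTN, so they are not a like measure for these 28.

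The 18 that rose under both scalings came from every role except the prolyl 4-hydroxylases. The proteases among them were Adam8, Adam15, Adam17, Adam19, Adamts2, Adamts10, Mmp9, Mmp14, Mmp19 and Mmp23. The others were the inhibitor gene Timp1, the ADAMTS-like genes Adamtsl4 and Adamtsl5, and the collagen-modifying genes Plod2, Plod3, Loxl1, Loxl2 and Loxl3. Of the 18, Adam8, Mmp19, Mmp23, Timp1 and Plod2 had a WT mean under 1 FPKM, and the filter fixed their direction. Timp1 was the only inhibitor gene of the 18. A further 11 rose with the deposited FPKM but were not called with the size factors. Quantile normalization also gave 18 higher, of which 16 were shared with those of the size factors. It lost the calls of Loxl3 (adjusted p = 0.110 with limma) and Mmp23 (adjusted p = 0.0626) and kept those of Mmp2 (adjusted p = 0.00553) and Plod1 (adjusted p = 0.0477). The remaining 4 not called under either scaling were Mmp15, P4ha1, P4ha2 and Adamts1.

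**Figure D1:**
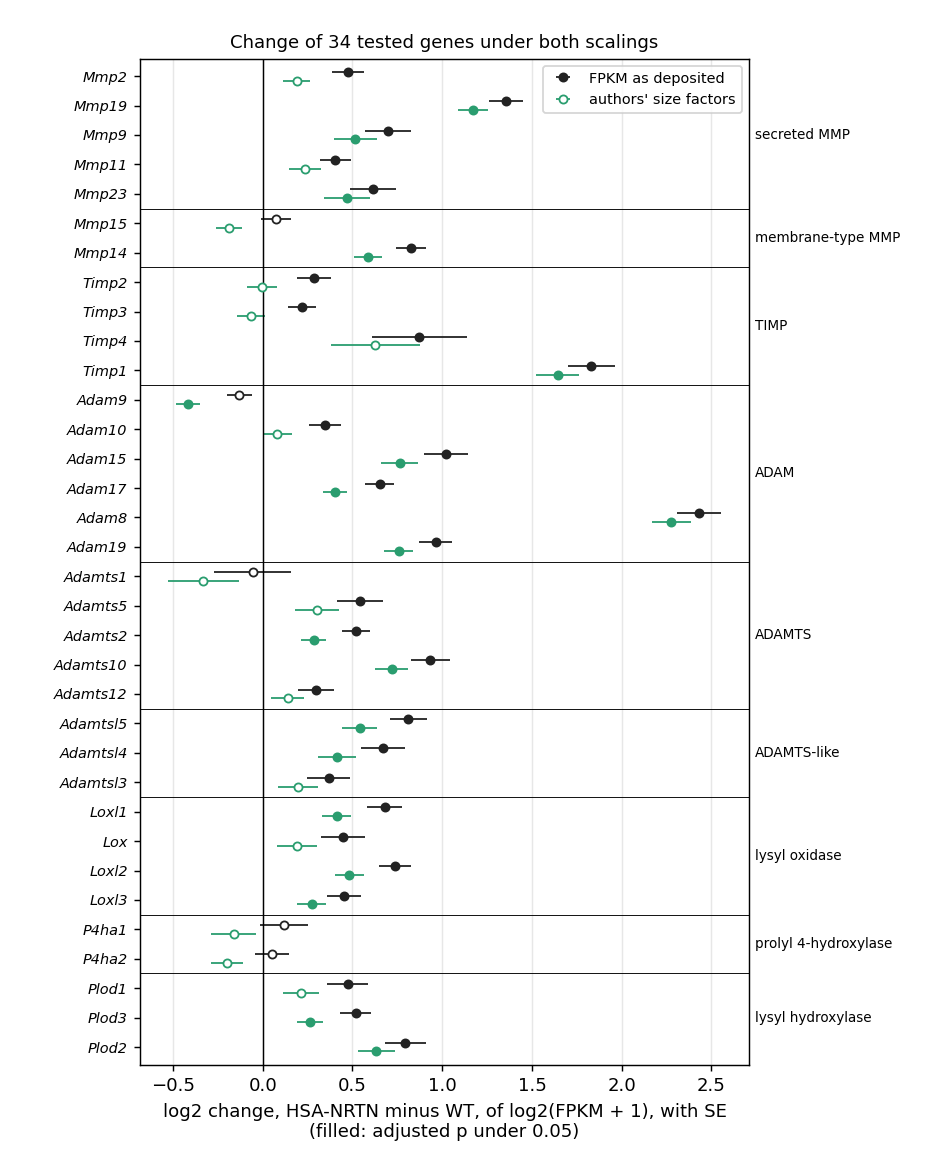
Log2 change of each of the 34 tested genes, HSA-NRTN over WT, with its SE from limma (x axis, log2 of FPKM + 1). Values are shown for the FPKM as deposited and after scaling by the inferred size factors of the authors. Genes are on the y axis, and filled points mark an adjusted p under 0.05. Adam8 (2.43), Timp1 (1.83) and Mmp19 (1.35) lie farthest to the right under the deposited scaling, and Adam9 (-0.42 with the size factors) is the only filled point to the left of 0.

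Markers of several cell types moved as well, and their part in the results on matrix enzymes was not tested. Of all tested genes, 41.6% rose and 11.7% fell as deposited, and 21.1% rose and 29.9% fell with the size factors. In whole muscle, more cells of a type cannot be told apart from more RNA per cell. All 12 fibroblast markers rose (11 with the size factors), from a summed level of 697 to 783 FPKM in WT to 1227 to 1424 FPKM in HSA-NRTN. Of 12 macrophage markers, 11 were tested and all 11 rose under both scalings, from a sum of 61.6 to 83.9 FPKM to one of 367 to 394 FPKM. Of 8 neutrophil markers 5 were in the table, 2 were tested and both rose under both scalings, and the sum of the 5 went from 0.305 to 0.721 FPKM in WT to 4.22 to 7.56 FPKM in HSA-NRTN. Among these, Ltf, the lactoferrin gene, was at or near 0 in every library (at most 0.0173 FPKM). Ngp, Ly6g and Camp were also looked up but were not among the 5 found, so the neutrophil list rests on few genes. The WT sum of the 5 stayed below 1 FPKM. Both tested neutrophil genes thus passed the filter only through their HSA-NRTN level, which fixed their direction. Endothelial markers rose for 10 of 10 tested genes (5 with the size factors), smooth muscle and pericyte markers for 7 of 8 (2), Schwann cell markers for 5 of 5 (3) and adipocyte markers for 5 of 6 (2). Of the tenocyte markers 3 of 6 rose (2 with the size factors, where 1 fell), and of the satellite cell markers 2 of 4 rose and 1 fell (1 and 2 with the size factors). Of the 10 muscle fibre markers, 2 rose and 6 fell (1 and 7 with the size factors). The higher calls of the tenocyte and satellite cell lists as deposited were near the share of all genes. With the size factors, so were those of the smooth muscle and pericyte list and of the satellite cell list.

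**Figure D2:**
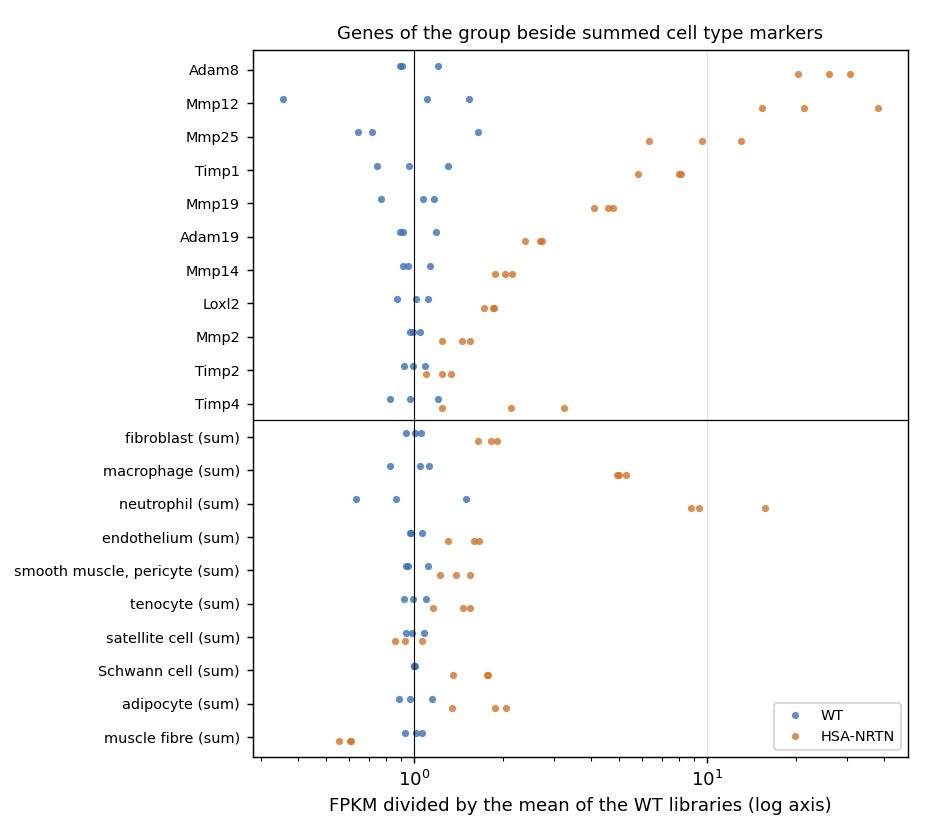
Level of 11 matrix enzyme and inhibitor genes and summed level of 10 cell type marker lists in each of the 6 libraries, divided by the WT mean of the same gene or list (log axis, no unit). Adam8 in HSA-NRTN lies at 20.4 to 30.8 times its WT mean, and muscle fibre markers lie below theirs.

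Among the secreted MMPs, 5 of 12 genes were tested and all 5 rose as deposited, 3 of them (Mmp19, Mmp9 and Mmp23) also with the size factors. The filter fixed the direction of Mmp19 and Mmp23, as their WT means were under 1 FPKM. Mmp19 (ENSMUSG00000025355, chromosome 10, 128790910 to 128800824, plus strand, GRCm38), which encodes a secreted MMP found in many tissues, had 0.939, 0.619 and 0.859 FPKM in WT and 3.31, 3.69 and 3.83 FPKM in HSA-NRTN. Every HSA-NRTN library was above every WT library. The mean rose from 0.806 ± 0.167 to 3.61 ± 0.271 FPKM (n = 3 each), 4.48-fold as deposited and 3.64-fold with the size factors. Its log2 change was 1.35 ± 0.09 (SE, limma adjusted p = 1.86e-05) as deposited and 1.17 ± 0.09 (adjusted p = 3.12e-05) with size factors. Tmem198b on the opposite strand covers 22.3% of the Mmp19 exon length. The labels do not say whether strand was kept, so reads of a shared stretch cannot be assigned to either gene.

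Mmp9, the gelatinase B gene, known from neutrophils and macrophages, had 1.25, 0.735 and 1.31 FPKM in WT and 2.07, 2.36 and 2.74 FPKM in HSA-NRTN. The groups did not overlap, and the log2 change was 0.70 ± 0.13 (SE, limma adjusted p = 0.00257) as deposited and 0.52 ± 0.12 (adjusted p = 0.00874) with size factors. Mmp2, gelatinase A, which is made mainly by fibroblasts and is activated at the cell surface, was the most abundant MMP, with 23.3, 21.7 and 22.2 FPKM in WT and 27.8, 34.7 and 32.5 FPKM in HSA-NRTN. It was above the WT range in every HSA-NRTN library under both scalings. Mmp2 rose as deposited (log2 change 0.48 ± 0.09 SE, adjusted p = 0.0028 with limma) but was not called with the size factors (log2 change 0.19 ± 0.08 SE, adjusted p = 0.0699 with limma). Mmp2 made up 58.5 to 61.0% of the summed MMP level in WT and 53.4 to 56.1% in HSA-NRTN.

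Mmp11, stromelysin 3, had 1.21, 1.04 and 0.97 FPKM in WT and 1.85, 1.53 and 1.85 FPKM in HSA-NRTN. The libraries did not overlap, and the log2 change was 0.40 ± 0.09 (SE, limma adjusted p = 0.00523) as deposited and 0.23 ± 0.09 (adjusted p = 0.0597) with size factors. Mmp23, an MMP released from the membrane by cleavage of its own precursor, had 0.764, 0.352 and 0.849 FPKM in WT and 1.6, 1.34 and 1.59 FPKM in HSA-NRTN. It rose 2.31-fold as deposited and 1.89-fold with the size factors, and the groups did not overlap. Its log2 change was 0.61 ± 0.13 (SE, limma adjusted p = 0.00424) as deposited and 0.47 ± 0.13 (adjusted p = 0.0175) with size factors.

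A group of 6 MMP genes, Mmp13, Mmp12, Mmp3, Mmp10, Mmp8 and Mmp27, lies together on chromosome 9 (GRCm38) between positions 7272514 and 7581885. None of them reached a mean of 1 FPKM over the 6 libraries. Mmp12 (ENSMUSG00000049723, chromosome 9, 7344381 to 7369499, plus strand, GRCm38), the macrophage elastase gene, had 1, 5 and 4 reads in WT and 45, 198 and 67 reads in HSA-NRTN. These reads correspond to 0.00504, 0.0219 and 0.0157 FPKM in WT and 0.218, 0.544 and 0.303 FPKM in HSA-NRTN, and all HSA-NRTN libraries were above all WT libraries. The ratio of the mean FPKM was 25, and the authors' deposited table gives a log2 fold change of 4.31 ± 0.61 SE (adjusted p = 2.07e-11). Mmp3, stromelysin 1, which cuts many matrix proteins and activates other MMPs, had 0.466, 0.422 and 0.347 FPKM in WT and 0.758, 1.05 and 1.31 FPKM in HSA-NRTN. Its groups did not overlap, and its log2 fold change in the authors' deposited table is 1.04 ± 0.38 SE (adjusted p = 0.0191). Mmp8, the neutrophil collagenase gene, had 0 reads in all WT libraries and 3, 6 and 4 reads in HSA-NRTN. This is 3.73 times a floor of 3 reads over the WT group, a value that leaves out the counting error of the HSA-NRTN reads. Mmp13, collagenase 3, had 2 to 8 reads per library, Mmp27 had 3 to 11, and Mmp10 had 4 reads in 1 HSA-NRTN library and 0 elsewhere.

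The promoters of Mmp12, Mmp3 and Mmp13 are shown because these neighbours had unequal read numbers, and that of Timp1 because it rose most among the inhibitors. The sequences are from RefSeq (GRCm38.p6), on the plus strand, 250 bases before and 50 bases after the annotated start. Capitals mark matches to TGANTCA (the AP-1 consensus), TATAAA, GAGGAAGT (an ETS-type motif of PU.1) or ACGTG (the core bound by hypoxia-inducible factors), searched on both strands.
Mmp12, chr9:7344147-7344446: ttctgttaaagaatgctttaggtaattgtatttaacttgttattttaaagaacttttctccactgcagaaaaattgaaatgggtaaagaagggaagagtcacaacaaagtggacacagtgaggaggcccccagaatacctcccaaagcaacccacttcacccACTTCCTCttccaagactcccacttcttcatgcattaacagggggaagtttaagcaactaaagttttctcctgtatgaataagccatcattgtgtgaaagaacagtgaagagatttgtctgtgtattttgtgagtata
Mmp3, chr9:7445572-7445871: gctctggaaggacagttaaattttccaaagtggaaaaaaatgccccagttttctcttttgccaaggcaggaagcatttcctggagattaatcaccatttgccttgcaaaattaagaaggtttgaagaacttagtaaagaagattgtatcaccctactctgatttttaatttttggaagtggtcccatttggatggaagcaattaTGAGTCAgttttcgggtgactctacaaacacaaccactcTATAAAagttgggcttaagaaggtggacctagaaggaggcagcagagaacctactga
Mmp13, chr9:7272264-7272563: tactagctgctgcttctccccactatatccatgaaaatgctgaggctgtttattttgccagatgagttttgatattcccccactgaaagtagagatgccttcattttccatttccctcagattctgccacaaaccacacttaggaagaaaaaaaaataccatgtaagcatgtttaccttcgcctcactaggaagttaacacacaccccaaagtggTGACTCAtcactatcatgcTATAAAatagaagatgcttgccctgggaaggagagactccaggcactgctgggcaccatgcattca
Timp1, chrX:20869916-20870215: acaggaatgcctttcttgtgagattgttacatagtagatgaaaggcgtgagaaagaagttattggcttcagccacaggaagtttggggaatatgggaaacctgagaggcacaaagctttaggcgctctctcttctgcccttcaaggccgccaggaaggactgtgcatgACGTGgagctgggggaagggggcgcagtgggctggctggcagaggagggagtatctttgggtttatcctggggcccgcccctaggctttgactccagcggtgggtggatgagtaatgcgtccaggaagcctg
The Mmp12 match begins 88 bases before the start, the TGANTCA match of Mmp3 46 bases before it and that of Mmp13 35 bases before it. The ACGTG match of Timp1 begins 82 bases before the start, and none of the marked matches overlap each other. TGANTCA was in 4 of the 46 member promoters found in the table (8.70%), against 7.81% of 32851 promoters of all genes. GAGGAAGT was in 2 of 46 (4.35% against 3.20%), TATAAA in 8 of 46 (17.4% against 13.6%) and ACGTG in 11 of 46 (23.9% against 19.6%). These matches are descriptions of the letters only.

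Of the membrane-type MMPs, which are anchored at the cell surface, 2 of 6 were tested. Mmp14 (ENSMUSG00000000957, chromosome 14, 54431612 to 54445364, plus strand, GRCm38), encoding the membrane-type enzyme that activates pro-MMP2 with the help of TIMP2, had 3.42, 2.78 and 2.89 FPKM in WT and 5.73, 6.51 and 6.17 FPKM in HSA-NRTN. All HSA-NRTN libraries exceeded all WT libraries, by 2.03-fold in the mean as deposited and 1.65-fold with the size factors. The log2 change was 0.83 ± 0.09 (SE, limma adjusted p = 0.000152) as deposited and 0.59 ± 0.08 (adjusted p = 0.000553) with size factors. Mmp15, another membrane-type enzyme, had 7.41, 6.75 and 7.06 FPKM in WT and 6.92, 8.39 and 7.26 FPKM in HSA-NRTN. Its groups overlapped with the deposited FPKM, and it was not called (log2 change 0.08 ± 0.08 SE, adjusted p = 0.468 with limma). With the size factors it was not called either, and the sign reversed (log2 change -0.19 ± 0.07 SE, adjusted p = 0.058 with limma). Mmp25, which is anchored by a lipid and known from leukocytes, had 3 to 64 reads per library. It had 0.0649, 0.0282 and 0.0252 FPKM in WT and 0.249, 0.377 and 0.514 FPKM in HSA-NRTN, without overlap, and the authors' deposited table gives a log2 fold change of 3.00 ± 0.63 SE (adjusted p = 1.23e-05). Mmp17, Mmp16 and Mmp24 had at most 0.203 FPKM in any library.

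The 4 inhibitor genes all rose with the deposited FPKM, and 1 of them, Timp1, rose with the size factors. As its WT mean was under 1 FPKM, Timp1 was tested only through its HSA-NRTN level, which fixed its direction. Timp1 (ENSMUSG00000001131, chromosome X, 20870166 to 20874735, plus strand, GRCm38), an inhibitor gene switched on in injured and inflamed tissue, had 0.657, 0.893 and 0.511 FPKM in WT and 3.98, 5.49 and 5.6 FPKM in HSA-NRTN. The lowest HSA-NRTN library was above the highest WT library. The mean rose from 0.687 ± 0.192 to 5.02 ± 0.905 FPKM (n = 3 each), 7.31-fold as deposited and 5.90-fold with the size factors. Its log2 change was 1.83 ± 0.13 (SE, limma adjusted p = 2.23e-05) as deposited and 1.64 ± 0.12 (adjusted p = 3.2e-05) with size factors. Timp1 made up 0.777 to 1.42% of the summed TIMP level in WT and 5.23 to 6.01% in HSA-NRTN.

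Timp2, which inhibits MMPs and also takes part in the activation of pro-MMP2, was the most abundant inhibitor gene, with 45.6, 38.7 and 41.3 FPKM in WT and 45.9, 55.8 and 52.2 FPKM in HSA-NRTN. As deposited the groups did not overlap and the log2 change was 0.29 ± 0.09 SE (adjusted p = 0.0319 with limma), but with the size factors it was -0.01 ± 0.08 SE (adjusted p = 0.959 with limma). The call was also lost without WT 2, WT 3, HSA-NRTN 2 or HSA-NRTN 3 (adjusted p up to 0.111 with limma). Timp3, which binds to the matrix and inhibits several ADAM and ADAMTS enzymes too, had 19.2, 20.8 and 20.8 FPKM in WT and 22.3, 23 and 26 FPKM in HSA-NRTN. Its change as deposited was 0.22 ± 0.08 SE (adjusted p = 0.0446 with limma), with the size factors it was -0.07 ± 0.08 SE (adjusted p = 0.496 with limma). The call held only without HSA-NRTN 1 among the 6 single-library omissions. The Syn3 gene on the opposite strand shares 21.3% of the Timp3 exon length.

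Timp4, known from heart and fat, had 3.91, 2.67 and 3.13 FPKM in WT and 4.01, 6.9 and 10.5 FPKM in HSA-NRTN. The HSA-NRTN libraries spread widely, and the lowest was barely above the WT range. It rose as deposited (log2 change 0.87 ± 0.27 SE, adjusted p = 0.0237 with limma) but not with the size factors (log2 change 0.63 ± 0.25 SE, adjusted p = 0.0642 with limma). The call was also lost without WT 2, WT 3, HSA-NRTN 2 or HSA-NRTN 3 (adjusted p up to 0.0700 with limma), and over the 6 single-library omissions the change ranged from 0.58, without HSA-NRTN 3, to 1.18. The summed adipocyte markers were at 56.9 to 73.4 FPKM in WT and at 85.9, 132 and 121 FPKM in HSA-NRTN 1, 2 and 3. Sums of other lists were also above WT in each HSA-NRTN library, while that of the muscle fibre markers was below it. The endothelial sum was at 95.8 to 105 FPKM in WT and at 130, 159 and 164 FPKM in HSA-NRTN 1, 2 and 3. The part of any list in the Timp4 result was not tested. The summed TIMP level was 1.74, 1.77 and 1.75 times the summed MMP level in WT and 1.47, 1.47 and 1.58 times in HSA-NRTN. The ratio was lower in every HSA-NRTN library, and the difference was not tested. This ratio does not depend on the scaling of a library. Timp2 and Timp3 made up most of the TIMP sum and Mmp2 most of the MMP sum, so the ratio describes chiefly these genes.

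**Figure D3:**
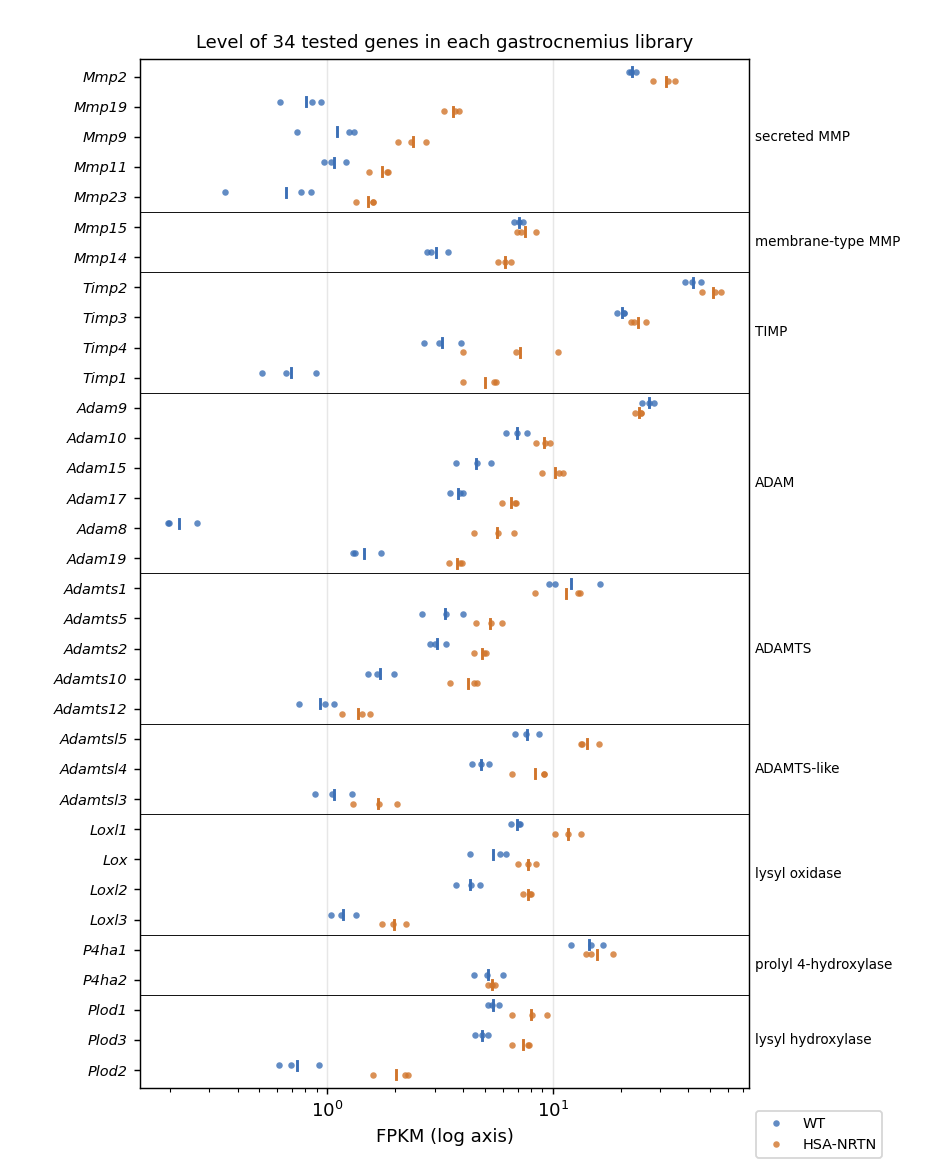
FPKM of the 34 tested genes in each of the 6 libraries (log axis), grouped by role, with points for libraries and short bars for the mean of each group. The WT and HSA-NRTN points of Adam8, Mmp19 and Timp1 lie far apart, while those of P4ha1, P4ha2, Mmp15 and Adamts1 overlap.

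Adam8, an ADAM gene, had the largest log2 change of the 34 tested genes. Adam8 (ENSMUSG00000025473, chromosome 7, 139978932 to 139992562, minus strand, GRCm38) encodes a sheddase known from macrophages, neutrophils and other leukocytes. Adam8 had 0.197, 0.198 and 0.263 FPKM in WT and 4.47, 5.7 and 6.75 FPKM in HSA-NRTN. These values rest on 25 to 43 reads per WT library and 592 to 1330 reads per HSA-NRTN library. Every HSA-NRTN library was far above every WT library, and the mean rose from 0.219 ± 0.0379 to 5.64 ± 1.14 FPKM (n = 3 each), 25.7-fold as deposited and 20.9-fold with the size factors. Its log2 change on the FPKM + 1 scale was 2.43 ± 0.12 (SE, limma adjusted p = 4.41e-06) as deposited and 2.28 ± 0.11 (adjusted p = 4.71e-06) with size factors. The authors' deposited table gives a log2 fold change of 4.37 ± 0.22 SE (adjusted p = 5.87e-89). In the same libraries the summed macrophage markers were at 61.6 to 83.9 FPKM in WT and 367 to 394 FPKM in HSA-NRTN. The summed neutrophil markers, a list of few genes, were at 0.305 to 0.721 FPKM in WT and 4.22 to 7.56 FPKM in HSA-NRTN. The part of either list in the Adam8 result was not tested.

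Adam15, a transmembrane protease gene expressed in endothelium and other cells, had 4.61, 3.72 and 5.31 FPKM in WT and 8.93, 10.7 and 11 FPKM in HSA-NRTN. The groups did not overlap and the log2 change was 1.02 ± 0.12 (SE, limma adjusted p = 0.000289) as deposited and 0.76 ± 0.10 (adjusted p = 0.000702) with size factors. A gene on the opposite strand, 4731419I09Rik, covers 20.6% of the Adam15 exon length. Adam19 (meltrin beta), which sheds growth factors such as neuregulins, had 1.3, 1.33 and 1.72 FPKM in WT and 3.45, 3.89 and 3.97 FPKM in HSA-NRTN. The log2 change of Adam19 was 0.96 ± 0.09 (SE, limma adjusted p = 9.92e-05) as deposited and 0.76 ± 0.08 (adjusted p = 0.000213) with size factors. Adam17, the enzyme that releases tumour necrosis factor and ligands of the epidermal growth factor receptor, had 4.01, 3.5 and 3.89 FPKM in WT and 5.98, 6.88 and 6.81 FPKM in HSA-NRTN, with no overlap between groups. The log2 change of Adam17 was 0.65 ± 0.08 (SE, limma adjusted p = 0.000367) as deposited and 0.41 ± 0.07 (adjusted p = 0.00165) with size factors.

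Adam10, the sheddase that cuts Notch receptors, had 6.21, 6.98 and 7.7 FPKM in WT and 8.42, 9.21 and 9.7 FPKM in HSA-NRTN. It rose with the deposited FPKM (log2 change 0.35 ± 0.09 SE, adjusted p = 0.0123 with limma) but was not called with the size factors (log2 change 0.08 ± 0.08 SE, adjusted p = 0.435 with limma), where the groups overlapped. Adam9 (ENSMUSG00000031555, chromosome 8, 24949611 to 25016927, minus strand, GRCm38), a further widely expressed sheddase gene and the most abundant ADAM, had 26.8, 24.8 and 28.1 FPKM in WT and 23.2, 24.6 and 24.7 FPKM in HSA-NRTN. The HSA-NRTN libraries were all below the WT libraries under both scalings, as deposited by a narrow margin. The deposited FPKM gave no call (log2 change -0.13 ± 0.07 SE, adjusted p = 0.152 with limma). Adam9 fell with the size factors (log2 change -0.42 ± 0.07 SE, adjusted p = 0.00138 with limma) and with quantile normalization (log2 change -0.20, adjusted p = 0.0377 with limma). The authors' deposited table gives -0.43 ± 0.09 SE (adjusted p = 4.57e-06). As deposited, the summed level of all 18 ADAM genes was 45.1 ± 3.32 FPKM in WT and 62.4 ± 4.87 FPKM in HSA-NRTN (SD, n = 3 each).

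Of the 19 ADAMTS genes 5 were tested. Adamts10, whose product binds fibrillin microfibrils, had 1.51, 1.66 and 1.97 FPKM in WT and 3.5, 4.63 and 4.45 FPKM in HSA-NRTN, with no overlap. Its log2 change was 0.93 ± 0.11 (SE, limma adjusted p = 0.000259) as deposited and 0.72 ± 0.09 (adjusted p = 0.000497) with size factors. Adamts2, the procollagen N-proteinase that trims the amino end of fibrillar procollagens, had 3.35, 2.85 and 3.01 FPKM in WT and 4.49, 5.03 and 4.97 FPKM in HSA-NRTN. The groups did not overlap, and its log2 change was 0.52 ± 0.08 (SE, limma adjusted p = 0.00102) as deposited and 0.28 ± 0.07 (adjusted p = 0.00995) with size factors. Adamts5, an aggrecanase, had 2.63, 3.35 and 3.99 FPKM in WT and 4.55, 5.33 and 5.92 FPKM in HSA-NRTN. Its groups did not overlap as deposited but overlapped with the size factors. Adamts5 rose as deposited (log2 change 0.54 ± 0.13 SE, adjusted p = 0.00859 with limma) but not with the size factors (log2 change 0.30 ± 0.12 SE, adjusted p = 0.0664 with limma).

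Adamts12, which can cut cartilage oligomeric matrix protein, had 1.07, 0.749 and 0.979 FPKM in WT and 1.16, 1.42 and 1.55 FPKM in HSA-NRTN. Its call as deposited (log2 change 0.30 ± 0.10 SE, adjusted p = 0.0352 with limma) was lost with the size factors (log2 change 0.14 ± 0.09 SE, adjusted p = 0.232 with limma). The call was also lost without WT 2, WT 3, HSA-NRTN 2 or HSA-NRTN 3 (adjusted p up to 0.125 with limma). Adamts1, a proteoglycan-cutting enzyme gene next to Adamts5 on chromosome 16, had 10.3, 9.64 and 16.3 FPKM in WT and 8.31, 13.2 and 12.9 FPKM in HSA-NRTN. The WT libraries alone ranged from 9.64 to 16.3 FPKM, the groups overlapped, and no change was called (log2 change -0.06 ± 0.22 SE, adjusted p = 0.843 with limma; with the size factors log2 change -0.33 ± 0.20 SE, adjusted p = 0.192 with limma).

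ADAMTS-like proteins lack the protease domain, and several bind microfibrils. Adamtsl5, the most abundant of them, had 8.7, 6.79 and 7.62 FPKM in WT and 13.5, 16 and 13.3 FPKM in HSA-NRTN, with no overlap between groups. The log2 change of Adamtsl5 was 0.81 ± 0.10 (SE, limma adjusted p = 0.000427) as deposited and 0.54 ± 0.10 (adjusted p = 0.00236) with size factors. Adamtsl4, whose product is known from the fibres that hold the eye lens, had 4.38, 4.81 and 5.21 FPKM in WT and 6.58, 9.17 and 9.15 FPKM in HSA-NRTN. The groups did not overlap, and the log2 change of Adamtsl4 was 0.67 ± 0.12 (SE, limma adjusted p = 0.00257) as deposited and 0.41 ± 0.11 (adjusted p = 0.0124) with size factors. Adamtsl3 had 0.885, 1.05 and 1.28 FPKM in WT and 1.3, 1.69 and 2.04 FPKM in HSA-NRTN. It rose as deposited (log2 change 0.37 ± 0.12 SE, adjusted p = 0.0328 with limma) but not with the size factors (log2 change 0.20 ± 0.11 SE, adjusted p = 0.169 with limma). Nor was it called without WT 1, WT 2, HSA-NRTN 2 or HSA-NRTN 3 (adjusted p up to 0.111 with limma). Their summed level with the 2 untested relatives went from 14.8 ± 1.06 to 25.3 ± 2.88 FPKM as deposited (SD, n = 3 each).

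The lysyl oxidases, copper enzymes that start the crosslinks of collagen and elastin, were tested for 4 of 5 genes. All 4 rose as deposited and Loxl1, Loxl2 and Loxl3 also with the size factors. Loxl1, known for its role in elastic fibres, had 7.06, 6.55 and 7.16 FPKM in WT and 10.2, 13.3 and 11.7 FPKM in HSA-NRTN. The groups did not overlap, and the log2 change of Loxl1 was 0.68 ± 0.10 (SE, limma adjusted p = 0.000696) as deposited and 0.41 ± 0.08 (adjusted p = 0.00332) with size factors. Loxl2, which crosslinks basement membrane collagen, had 4.77, 3.73 and 4.35 FPKM in WT and 7.38, 8.01 and 7.94 FPKM in HSA-NRTN, with no overlap. The log2 change of Loxl2 was 0.74 ± 0.09 (SE, limma adjusted p = 0.000308) as deposited and 0.48 ± 0.08 (adjusted p = 0.0016) with size factors. Loxl3 had 1.34, 1.04 and 1.15 FPKM in WT and 1.75, 2.23 and 1.96 FPKM in HSA-NRTN, also with no overlap. Its log2 change was 0.45 ± 0.09 (SE, limma adjusted p = 0.00412) as deposited and 0.27 ± 0.08 (adjusted p = 0.0246) with size factors. The Htra2 gene on the opposite strand covers 11.6% of the Loxl3 exon length. Lox, the founding member, had 6.2, 4.3 and 5.85 FPKM in WT and 7.01, 7.79 and 8.39 FPKM in HSA-NRTN. It rose as deposited (log2 change 0.45 ± 0.12 SE, adjusted p = 0.0158 with limma) and was not called with the size factors (log2 change 0.19 ± 0.11 SE, adjusted p = 0.188 with limma). Lox also lost its call without HSA-NRTN 3 (adjusted p = 0.0576 with limma). In sum the family went from 18.5 ± 1.85 to 30.1 ± 2.83 FPKM as deposited (SD, n = 3 each).

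Inside the cell, 3 lysyl hydroxylase genes rose as deposited (2 with the size factors), and 2 of the 3 prolyl 4-hydroxylase genes were tested and neither was called. The filter fixed the direction of Plod2, whose WT mean was under 1 FPKM. Plod2, which hydroxylates the collagen ends used in stable crosslinks, had 0.609, 0.688 and 0.916 FPKM in WT and 1.59, 2.2 and 2.28 FPKM in HSA-NRTN. The log2 change of Plod2 was 0.79 ± 0.12 (SE, limma adjusted p = 0.000808) as deposited and 0.63 ± 0.10 (adjusted p = 0.00158) with size factors. Plod3, which also adds sugars to collagen, had 5.17, 4.51 and 4.88 FPKM in WT and 6.57, 7.76 and 7.85 FPKM in HSA-NRTN, with no overlap between groups. The log2 change of Plod3 was 0.52 ± 0.09 (SE, limma adjusted p = 0.00159) as deposited and 0.26 ± 0.07 (adjusted p = 0.0164) with size factors. Opposite-strand Znhit1 covers 11.7% of its exon length. Plod1 had 5.8, 5.17 and 5.39 FPKM in WT and 6.58, 8.05 and 9.45 FPKM in HSA-NRTN, without overlap as deposited. It rose as deposited (log2 change 0.47 ± 0.12 SE, adjusted p = 0.00945 with limma) but not with the size factors (log2 change 0.21 ± 0.10 SE, adjusted p = 0.107 with limma). P4ha1, the main catalytic subunit of collagen prolyl 4-hydroxylase, had 16.6, 12 and 14.8 FPKM in WT and 14.1, 14.8 and 18.5 FPKM in HSA-NRTN. Its groups overlapped, and it was not called as deposited (log2 change 0.12 ± 0.13 SE, adjusted p = 0.481 with limma) nor with the size factors (log2 change -0.16 ± 0.12 SE, adjusted p = 0.301 with limma). P4ha2 had 5.99, 4.47 and 5.08 FPKM in WT and 5.19, 5.54 and 5.38 FPKM in HSA-NRTN. It was likewise not called under either scaling (log2 change 0.05 ± 0.10 SE, adjusted p = 0.678 with limma; log2 change -0.20 ± 0.09 SE, adjusted p = 0.0949 with limma). The difference between both enzyme families was not tested.

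The 41 genes under a mean of 1 FPKM comprised 27 with a mean of at least 0.1 FPKM and 14 below it. The 27 were the ADAMs Adam1a, Adam4, Adam11, Adam12, Adam22, Adam23 and Adam33, the ADAMTS genes Adamts3, Adamts4, Adamts6, Adamts7, Adamts8, Adamts9, Adamts14, Adamts15, Adamts16, Adamts19 and Adamts20, Adamtsl1 and Adamtsl2, Loxl4, and Mmp3, Mmp12, Mmp17, Mmp25, Mmp27 and Mmp28. Adamts9 had the most reads of the 41, from 276 to 978 per library, and its groups overlapped. In a limma fit with the filter at 0.1 FPKM, in which 35.2% of 16650 genes were higher and 8.23% lower, 10 of the 27 rose (Adam12, Adam23, Adam33, Adamts7, Adamts14, Adamts15, Adamts19, Mmp3, Mmp12 and Mmp25) and 0 fell. Mmp12, Mmp25 and Adamts19 had a WT mean under 0.1 FPKM and passed the filter only through their HSA-NRTN level, which fixed their direction. Of the 22 genes with a WT mean of at least 0.1 FPKM, 7 rose (31.8%). The 35.2% of all genes includes genes that passed only through HSA-NRTN. In the authors' deposited table, where 18.0% of 18953 genes were higher and 17.8% lower (35.8% either), 68 of the 75 members had an adjusted p. Of these 30 were higher (44.1%) and 4 lower (5.88%). Of the 34 untested genes among these, 11 were higher, namely Adam12, Adam23, Adam33, Adamts4, Adamts14, Adamts15, Adamts19, Mmp3, Mmp12, Mmp25 and P4ha3, and 3 lower, Adamts16, Adamts20 and Adamtsl1.

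Adamts14, a relative of the procollagen N-proteinase ADAMTS2, had 0.4, 0.183 and 0.235 FPKM in WT and 1.41, 1.14 and 1.16 FPKM in HSA-NRTN. The HSA-NRTN libraries were all far above the WT libraries, with a log2 fold change of 1.90 ± 0.27 SE (adjusted p = 7.07e-11) in the authors' deposited table. Adam12 (meltrin alpha), known from regenerating muscle, had 0.11, 0.12 and 0.126 FPKM in WT and 0.328, 0.414 and 0.331 FPKM in HSA-NRTN, without overlap. Its log2 fold change in the authors' deposited table is 1.29 ± 0.27 SE (adjusted p = 1.55e-05). Adam33, an ADAM of mesenchymal cells, had 0.507, 0.635 and 0.736 FPKM in WT and 1.02, 1.35 and 1.25 FPKM in HSA-NRTN, also without overlap. The authors' deposited table gives 0.64 ± 0.21 SE (adjusted p = 0.00773). P4ha3, the third alpha subunit, had 0 to 19 reads per library and 0, 0.0202 and 0.0543 FPKM in WT and 0.212, 0.121 and 0.167 FPKM in HSA-NRTN. The authors' deposited table gives 2.38 ± 0.89 SE (adjusted p = 0.0234).

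In the other direction, Adamtsl1 had 1.07, 0.613 and 0.827 FPKM in WT and 0.43, 0.568 and 0.623 FPKM in HSA-NRTN. The authors' deposited table gives a log2 fold change of -0.93 ± 0.20 SE (adjusted p = 2.3e-05), and the deposited FPKM of the groups overlapped. Adamts20, known from pigment cell and skin development, had 0.612, 0.374 and 0.552 FPKM in WT and 0.245, 0.442 and 0.276 FPKM in HSA-NRTN. Its log2 fold change in the authors' deposited table is -0.96 ± 0.26 SE (adjusted p = 0.00122). Adamts16 had 17 to 43 reads per library and 0.176, 0.162 and 0.149 FPKM in WT and 0.087, 0.125 and 0.0909 FPKM in HSA-NRTN. The authors' deposited table gives -0.97 ± 0.41 SE (adjusted p = 0.0495). At the other end of abundance, 6 genes (Adam21, Adam30, Adamts13, Mmp10, Mmp24 and Mmp8) had 0 reads in every WT library. Adam21 had 8 reads in HSA-NRTN, 2.30 times the floor of 3 reads over the WT group, a count too small to call it higher. Adam32, which lies 807 bases from Adam9 on chromosome 8, had 3 to 8 reads per library.

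**Figure D4:**
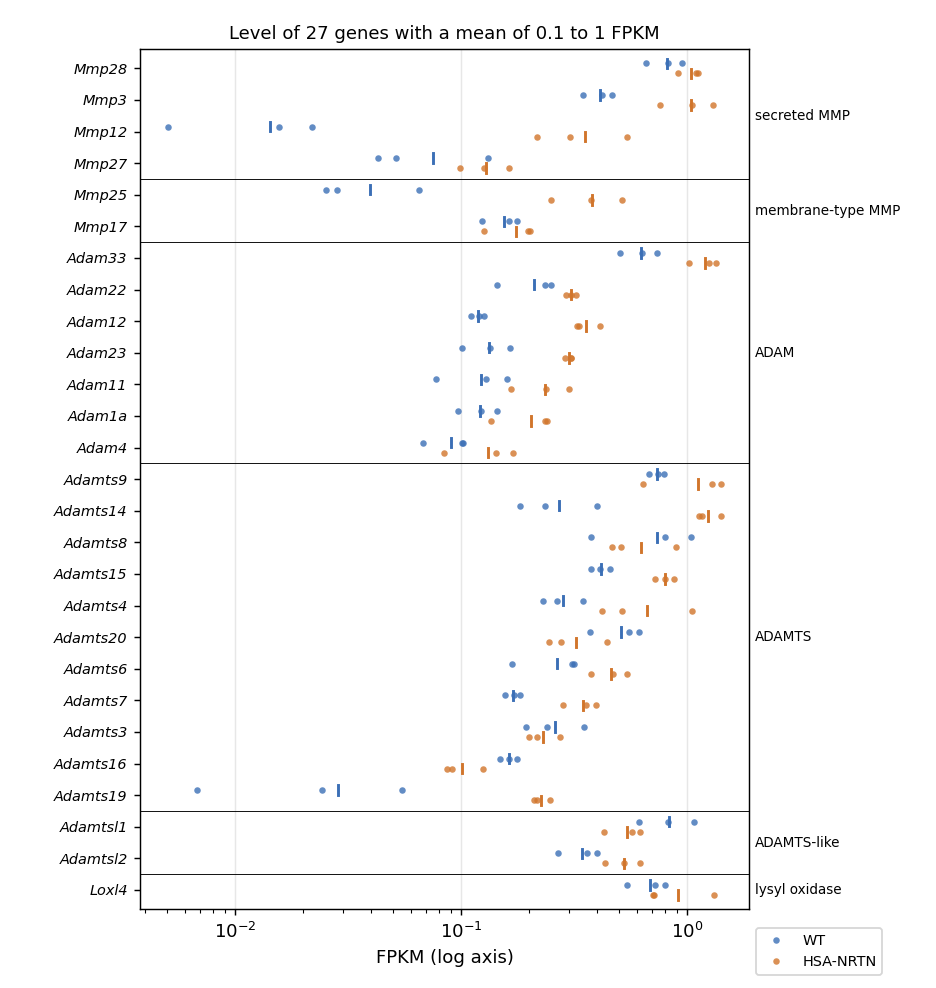
FPKM of the 27 untested genes with a mean of 0.1 to 1 FPKM in each of the 6 libraries (log axis), with points for libraries and short bars for the mean of each group. Mmp12, Mmp25 and Adamts19 show the widest gap between WT and HSA-NRTN points, and Adamts16 lies lower in HSA-NRTN.

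Genes that act beside the members were counted from lists of 42 genes, of which 32 were tested. As deposited 21 rose and 0 fell (limma gave 2 lower at an unadjusted p under 0.05, and limma-voom 22 higher and 0 lower), and with the size factors 10 rose and 4 fell. The 21 are 65.6% of those tested, where 41.6% of all genes rose. With the size factors 31.2% rose and 12.5% fell, against 21.1% and 29.9% of all genes. Their median log2 change was 0.42 and 0.17, beside 0.18 and -0.05 for all tested genes.
Collagen folding and processing genes rose for 12 of 14 tested (6 with the size factors). Ppib, a prolyl isomerase of collagen folding, went from 6.87 ± 0.418 to 12.9 ± 0.167 FPKM, and Bmp1, the procollagen C-proteinase, from 3.25 ± 0.248 to 5.84 ± 0.519 FPKM (SD, n = 3 each). Both rose under both scalings. Of the plasminogen system, whose protease plasmin can activate MMPs, 4 of 5 tested genes rose (2 with the size factors). Plau, urokinase, went from 15.9 ± 1.46 to 34.7 ± 6.72 FPKM and Plat, tissue plasminogen activator, from 1.57 ± 0.164 to 2.56 ± 0.352 FPKM (SD, n = 3 each), and both rose under both scalings.
Of 13 tested genes for other regulators, 5 rose and 0 fell as deposited, and 2 rose and 4 fell with the size factors. The 5 are 38.5%, below the 41.6% of all genes that rose, and the 4 are 30.8%, near the 29.9% of all genes that fell with the size factors. Sparc, a collagen-binding matrix protein gene, went from 107 ± 8.27 to 179 ± 24.1 FPKM and Tspan14, a tetraspanin partner of ADAM10, from 6.27 ± 1.04 to 10.7 ± 0.932 FPKM (SD, n = 3 each), and both rose under both scalings. Those that fell with the size factors were the serine protease gene Htra1 (13.6 ± 2.3 to 10.6 ± 1.32 FPKM), the MMP inducer gene Bsg (244 ± 35.5 to 205 ± 3.1 FPKM), Tspan15 and Tspan17 (SD, n = 3 each).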

How the data were processed

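Total RNA of snap-frozen gastrocnemius went into TruSeq libraries, per the labels' protocols, which do not say whether strand was kept. HISAT2, HTSeq, DESeq2, Cufflinks and Cuffdiff with GRCm38 are named by the submitters' processing notes, without versions or settings. The single deposited table holds the authors' FPKM per library, the authors' mean signal per gene (reads divided by size factors) and their comparison of the groups. That comparison consists of log2 fold changes and their errors as deposited, a deposited score per gene, and p-values that the authors gave with and without adjustment. All sample columns matched a label. The unit FPKM was checked from the values: 100% of 127467 values above 0 gave whole reads within 0.01 read, with gene lengths equal to the exon union of GENCODE M21 for 95.6% of 25305 matched genes. In a gene of 1 kilobase, 3 reads correspond to 0.0597 to 0.109 FPKM, a limit that covers counting error only. Replicates were distinct libraries: in every within-group pair the chi-square divided by its degrees of freedom was 12.1 to 33.5.

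From these values log2(FPKM + 1) was computed and the groups were compared by limma (3.58.1, under R 4.3.3) with its trend option, over 10755 genes averaging 1 FPKM or more, two-sided, without a block, with Benjamini-Hochberg adjustment. Changes on this scale understate those of low genes. The script was tested on simulated data. Alternatives were the authors' size factors, quantile normalization, a pseudocount of 0.1, filters at 0.1 FPKM, 5 FPKM or none, limma-voom on the recovered reads, a replicate block and omission of each library. The reads and the size factors were not given as such. They were inferred from the FPKM, the gene lengths and the deposited mean signal. All members averaging 1 FPKM or more are named with their values, those of 0.1 to 1 FPKM by name and counts, and of each list of other matrix genes the 2 called genes with the smallest p per direction. The members and lists were chosen with earlier results of these data known. The motifs, the promoters shown and the other low genes named were chosen after values were seen.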

Additional observations from a re-analysis of the deposited data

How the results depend on the processing

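All tested genes counted 4476 higher and 1255 lower as deposited, 2264 and 3218 with the authors' size factors, and 2377 and 2889 with quantile normalization. The matrix genes counted 29 higher and 0 lower, against 18 and 1 with the size factors and 18 and 1 with quantile normalization, with 16 higher genes shared by the last 2. The other matrix genes counted 21 and 0, against 10 and 4, and 12 and 4. With the filter at 5 FPKM, fewer genes were tested. The higher counts were 2023 of 5395 genes in all, 14 of 19 matrix genes, and 11 other matrix genes. Signs reversed with the size factors for Timp2 (-0.0058), Timp3 (-0.067), Mmp15 (-0.19), P4ha1 (-0.16) and P4ha2 (-0.20), with quantile normalization for Mmp15 (-0.10), P4ha1 (-0.025) and P4ha2 (-0.17), and when 1 library was left out for P4ha1 (-0.0017 to 0.22, below 0 without WT 2), P4ha2 (-0.034 to 0.14, below 0 without WT 2) and Adamts1 (-0.19 to 0.16, above 0 without WT 3 or HSA-NRTN 1); the cause was not tested. Omitting each library in turn gave 23 to 29 higher matrix genes, 17 to 22 higher and 0 to 1 lower other matrix genes, and 3560 to 4600 higher and 1007 to 1194 lower genes in all. The 6 calls lost in 1 or more omissions were Timp2, Timp3, Timp4, Adamts12, Adamtsl3 and Lox, and 23 held in each. Without a filter Timp2, Timp3, Timp4, Adamts12 and Adamtsl3 lost their calls, and with the 0.1 FPKM filter Timp3 did (adjusted p = 0.0515 with limma).

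The deviations of same-numbered libraries from their group means had correlations of 0.083, -0.17 and 0.19. Pairs with different numbers had -0.19 to 0.10. With 3 libraries per group this cannot settle whether same-numbered libraries share more than a number. With a replicate block the counts were 4309 higher and 1212 lower of all genes, 27 and 0 matrix genes and 20 and 0 other matrix genes, with Timp2 (adjusted p = 0.0748) and Adamts12 (adjusted p = 0.0629 with limma) lost. Low counts limit Mmp27 and the genes under 0.1 FPKM, such as Mmp8, Mmp10 and Mmp13.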
